A study of Mus musculus with 16 samples.

Results

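Genes that copy DNA and genes that drive mitosis were followed across Notch1 genotypes in endothelial cells of mouse embryos. The list holds 39 of the 22096 gene symbols in the data, 21 that act in S phase and 18 that act in mitosis. It names genes by their function, and it was drawn up with earlier results of these data known. All 39 were found, had a successful expression estimate in every library, and passed the filter on low values. Endothelial cells had been sorted by their CD31 surface antigen from whole embryos at embryonic day 9.5, and RNA was measured in 16 libraries. The question behind the series, from its title, is how the dose of Notch1 modulates endothelial expression.

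The labels set the groups apart by their Notch1 alleles, and the groups also differ in library number and depth, as described below. The +/+ embryos had wild-type alleles alone, the +/- embryos 1 wild-type and 1 deleted allele, and the +/vg embryos 1 wild-type allele and 1 allele called vg. The vg allele carries the substitution V1744G, which moves a cleavage site so that the released intracellular domain is less stable. The +/12 embryos had 1 wild-type allele and 1 allele called 12, whose intracellular part comes from Notch2 instead of Notch1. The 12/- embryos had the 12 allele and the deleted allele, and the 12/vg embryo had the 12 allele and the vg allele. Each group held 3 libraries except 12/vg, which held 1. The labels describe the endothelium as normal in +/+, +/-, +/vg and +/12, as dysfunctional in 12/- and as partly dysfunctional in 12/vg. The 4 normal groups, with 12 libraries, are called normal here. How many embryos went into a library is not given in the labels.

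Before a cell copies its genome, Cdc6 and Cdt1 load rings of the Mcm helicase onto replication origins. Cdc45 and the Gins proteins then join each ring, primase and DNA polymerase alpha start the new strands, and the clamp Pcna holds the polymerases in place. Mitosis is driven by the kinase Cdk1 with its cyclins and by the Plk1 and Aurora kinases, and it ends when Cdc20 directs the degradation of cyclin B. Many S-phase genes are known to be switched on by E2F factors, and many mitotic genes by complexes that bind a promoter element called CHR, often beside CCAAT boxes. In endothelium, Notch signalling is known to slow cell division in some settings, among them the specification of arteries.

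Matches to these elements were found in many but not all promoters of the members, and 5 promoters are printed to make the elements visible. The sequences are from RefSeq (GRCm38.p6, a later build than the mm9 of the expression data) and run 5′ to 3′ on the strand of the gene up to the base before its start. Capitals mark matches on either strand to E2F sites (TTTCCCGC, TTTCGCGC, TTTGCCGC or TTTGGCGC), to CHR (TTTGAA or TTCGAA) and to the CCAAT box (CCAAT, or ATTGG where it lies on the other strand). Mcm6 had the most E2F matches among the S-phase genes, with 3 (of which 2 overlap), and 2 CCAAT boxes, and its printed stretch is chr1:128359706-128359955 on the minus strand.
Mcm6: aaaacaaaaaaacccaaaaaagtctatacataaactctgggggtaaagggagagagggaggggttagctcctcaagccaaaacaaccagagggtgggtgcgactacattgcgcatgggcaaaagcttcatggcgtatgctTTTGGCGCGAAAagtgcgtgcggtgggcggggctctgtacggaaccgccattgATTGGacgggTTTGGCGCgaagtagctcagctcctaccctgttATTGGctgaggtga
Top2a had the most CHR matches among the mitotic genes, with 4, and 6 CCAAT boxes, and its stretch is chr11:99024190-99024439 on the minus strand.
Top2a: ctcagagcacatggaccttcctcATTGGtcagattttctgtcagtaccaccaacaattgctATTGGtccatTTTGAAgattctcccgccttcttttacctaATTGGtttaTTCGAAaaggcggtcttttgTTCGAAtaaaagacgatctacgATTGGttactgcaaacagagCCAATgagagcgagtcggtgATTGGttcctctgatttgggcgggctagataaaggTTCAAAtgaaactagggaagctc
Cdk1, shown as the mitotic gene with an E2F match, had 1 such match, 2 CHR matches and 3 CCAAT boxes in chr10:69352913-69353162 on the minus strand.
Cdk1: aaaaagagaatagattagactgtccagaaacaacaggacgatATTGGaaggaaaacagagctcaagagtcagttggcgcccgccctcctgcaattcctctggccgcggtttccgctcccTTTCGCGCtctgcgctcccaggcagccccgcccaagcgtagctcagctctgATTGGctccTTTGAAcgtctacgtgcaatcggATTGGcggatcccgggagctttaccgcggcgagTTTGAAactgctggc
Rrm2 and Ccnb1, which were highest in the same 4 libraries, had no E2F or CHR match in this window. Neither did Pcna, Prim1, Rfc4, Rrm1, Tyms, Birc5 and Cenpe, which were not highest in those 4 libraries. Rrm2 had 1 CCAAT box in chr12:24708004-24708253 on the plus strand, and Ccnb1 had 2 in chr13:100786487-100786736 on the minus strand.
Rrm2: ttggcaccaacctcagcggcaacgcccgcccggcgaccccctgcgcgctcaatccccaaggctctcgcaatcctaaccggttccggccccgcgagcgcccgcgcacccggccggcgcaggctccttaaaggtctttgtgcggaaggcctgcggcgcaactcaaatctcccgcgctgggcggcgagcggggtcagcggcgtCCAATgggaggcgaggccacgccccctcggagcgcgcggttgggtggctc
Ccnb1: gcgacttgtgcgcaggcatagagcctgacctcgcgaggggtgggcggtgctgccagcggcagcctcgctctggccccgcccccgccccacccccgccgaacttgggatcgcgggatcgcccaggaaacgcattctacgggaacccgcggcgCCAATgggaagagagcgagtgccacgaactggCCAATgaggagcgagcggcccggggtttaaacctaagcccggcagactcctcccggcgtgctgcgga

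Over windows of 300 bases around the start, which reach a little past it, 18 of the 21 S-phase genes and 14 of the 18 mitotic genes had an entry. E2F matches were present in 9 of the 18 S-phase genes (50%), among them Mcm3, Mcm5, Mcm6, Mcm7, Cdc6 and Cdt1, and in 1 of the 14 mitotic genes (7.14%), which was Cdk1. CHR matches had the opposite order, with 5 S-phase genes (27.8%) and 11 mitotic genes (78.6%). CCAAT boxes were found in 12 S-phase genes (66.7%) and 13 mitotic genes (92.9%). Among the 7346 tested genes with a window, 5.27% had an E2F match, 16% a CHR match and 42.9% a CCAAT box. Over all 27025 genes of the promoter table these shares were 2.6%, 21.7% and 41.1%. The other genes of the same processes had the same order. E2F was found in 14 of 45 other replication genes (31.1%) and 9 of 70 other mitosis genes (12.9%), and CHR in 7 (15.6%) and 50 (71.4%). A match of these letters is a description of the window and not a shown binding site.

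**Figure D1:**
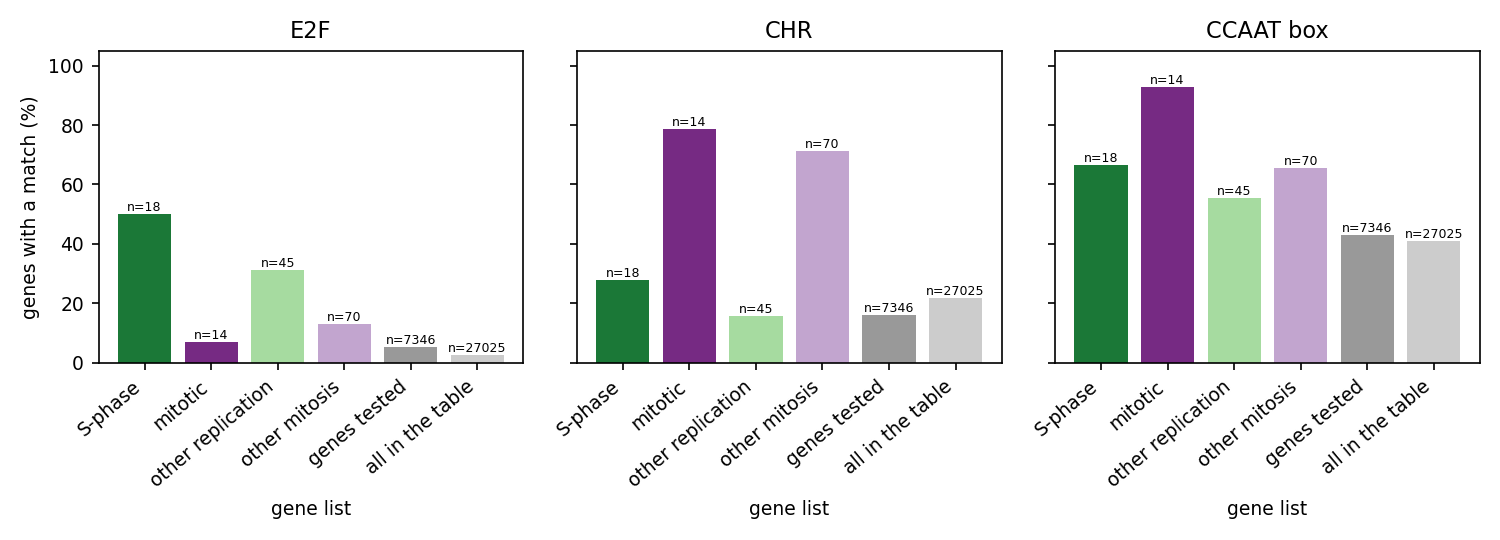
Share of genes (vertical axis, percent) with a match to E2F, CHR or CCAAT in a promoter window of 300 bases, for the S-phase and mitotic members, the other genes of each process, the genes tested and all genes of the table. E2F matches were in 50% of S-phase and 7.14% of mitotic members, and CHR matches in 27.8% and 78.6%.

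Levels are given as scaled FPKM, which is fragments per kilobase of transcript, set relative to the mapped fragments and divided by 1 factor per library. This unit is per length, so genes can be compared. The cells expressed both classes strongly. The median level was 24.3 scaled FPKM for the S-phase genes and 26.1 for the mitotic genes, against 6.74 over the 10550 genes tested. The S-phase median lay above 83.3% of the genes tested and the mitotic median above 84.5%. Levels ran from 4.19 for Pola1 to 130.0 for Pcna in the S-phase class, and from 6.58 for Cenpf to 124 for Birc5 in the mitotic class. The members were also steady between libraries of 1 genotype. The median residual SD on the log2 scale was 0.20 for the S-phase genes and 0.19 for the mitotic genes, against 0.24 over all genes tested, which lie lower on average. Over the 14 libraries of full depth, the highest value of a member was a median of 1.45 times its lowest in the S-phase class and 1.53 times in the mitotic class, against 1.92 times over all genes.

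Depth and other features of the libraries bear on what follows. The aligned sequence was between 1.11 and 1.80 gigabases in 14 libraries, but 0.189 in +/- replicate 2 and 0.262 in the 12/vg library, which are called shallow. The deposited files carry a library number, from 203 to 248 in 9 libraries and from 371 to 380 in 7, and the labels do not say what it stands for. All +/+ libraries had high numbers, all +/12, 12/vg and 12/- libraries low ones, and +/- and +/vg had 2 high and 1 low each. All 16 endothelial markers examined were present in every group, and their summed level was 1473 to 1736 in 12/-, 1270 to 1512 in the normal libraries and 1680 in 12/vg. Of the 16, 14 had a positive log2 change in 12/- against normal (median 0.25), 5 passed at an unadjusted limma p under 0.05, all higher, and Flt1 was called (0.75 ± 0.12, SE; limma adjusted p = 0.00706). The 5 were Flt1, Pecam1 (which encodes the CD31 used for sorting), Kdr, Cdh5 and Eng. Summed erythroid markers ran from 94.8 to 353 in 12/-, from 109.6 to 260.0 in normal libraries, and stood at 36.6 in 12/vg. Megakaryocyte and platelet markers ran from 259 to 2061, with overlapping ranges between genotypes. Sums of the leukocyte, cardiac, mesenchymal, and neural and epithelial lists did not pass 90.7 in any library. The part of these cells in the values below was not tested.

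No member was called different in any of 12 comparisons of genotypes, where a call means a limma p-value under 0.05 after adjustment over all 10550 genes. In 12/- against the mean of the normal groups, 0 of 39 members were called, and 0.787% of all genes were. The 95% confidence interval of the change lay inside a factor of 2 in either direction for all 39 members, and inside a factor of 1.5 for 38 of them, Rrm2 being the exception. Over all genes tested, 91.0% had intervals inside a factor of 2 and 66.3% inside a factor of 1.5. In bulk RNA such as this, fewer dividing cells and less RNA of these genes per cell cannot be told apart. At an unadjusted p under 0.05, 0 of 21 S-phase genes and 3 of 18 mitotic genes passed, with 11.5% of all genes passing. The 3 were Cdk1, Cdc20 and Kif20a, all higher in 12/-, where 6.57% of all genes passed as higher.

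**Figure D2:**
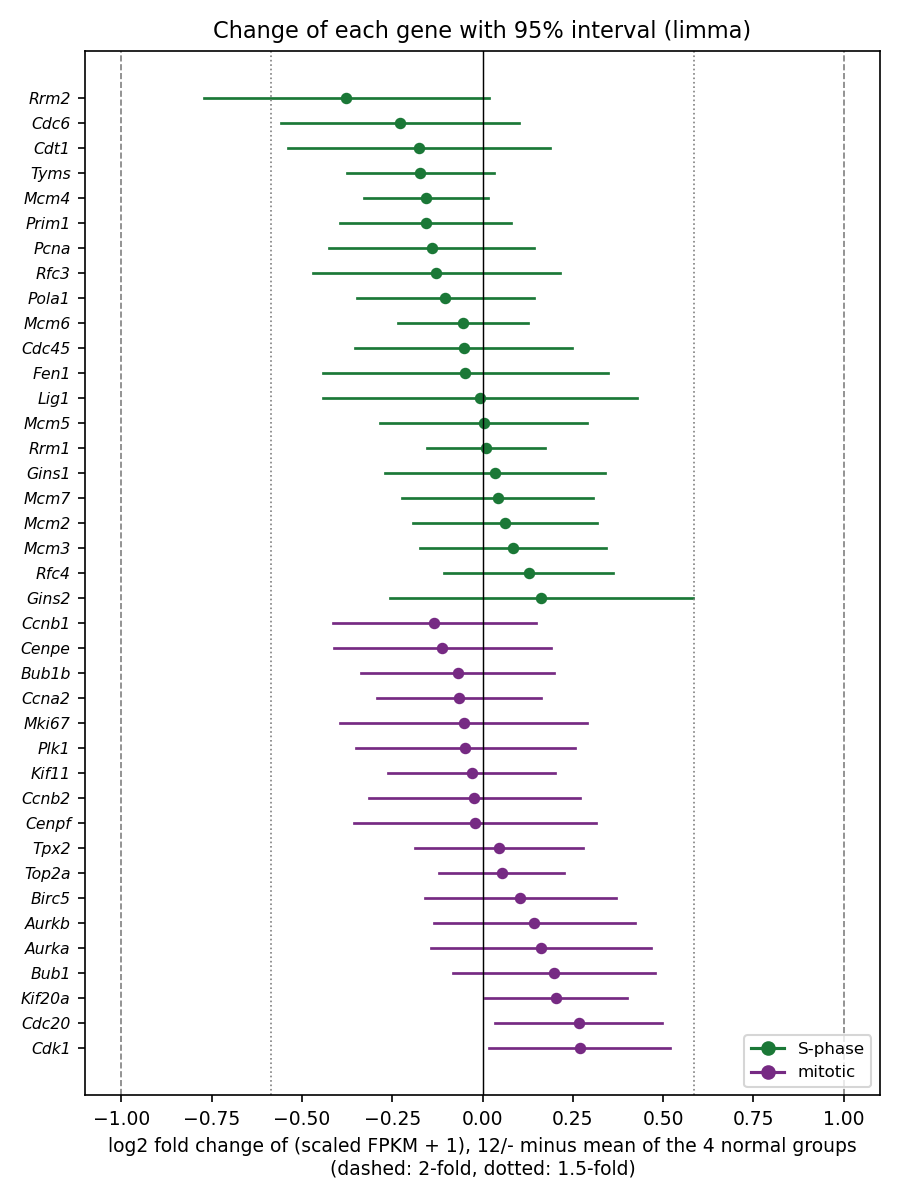
Log2 fold change of scaled FPKM + 1 for each member in 12/- against the mean of the 4 normal groups (horizontal axis), with points for estimates and lines for 95% confidence intervals from limma. All intervals lie between the dashed lines at a factor of 2, and the 3 that lie wholly above 0 are those of Cdk1, Cdc20 and Kif20a.

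The S-phase genes were spread around no change in 12/-. Of 21, 8 had a positive and 13 a negative log2 change, with a median of -0.05 and a range from -0.38 to 0.16. The median over all genes was -0.00. Mcm2, a subunit of the ring and a common marker of cells able to divide (chr6:88833468-88848774, mm9), stood at 37.6, 29.1 and 34.8 scaled FPKM in 12/-. It stood at 34.3, 29.7 and 31.8 in +/+, 35.04, 24.5 and 34.4 in +/-, 35.3, 30.9 and 30.8 in +/vg and 31.4, 37.5 and 32.2 in +/12, and at 27.97 in 12/vg. The 12/- libraries overlapped every normal group, and the log2 change was 0.06 ± 0.12 (SE; limma adjusted p = 0.885). Mcm4, another subunit of the ring (chr16:15623990-15637493), had the smallest SE among the members with a negative change. Its values in 12/- were 22.4, 24.02 and 21.3, below the 25.5, 24.7 and 25.6 of +/12 and the 27.3, 26.6 and 25.5 of +/vg without overlap. The +/+ libraries at 26.1, 25.5 and 23.7 and the +/- libraries at 24.00, 21.9 and 27.2 overlapped 12/-, and 12/vg was lowest at 20.5. The log2 change from normal was -0.16 ± 0.08 (SE; limma adjusted p = 0.483). The other helicase genes had log2 changes of 0.08 (Mcm3), 0.00 (Mcm5), -0.05 (Mcm6) and 0.04 (Mcm7), none past the test.

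The factors that load and start the helicase were mixed. Cdc6 averaged 8.31 scaled FPKM over the 16 libraries and Cdt1 32.9, and their log2 changes in 12/- were -0.23 and -0.18. Cdt1, which is known to be degraded once copying begins, ranged widely within 12/-, with values of 35.4, 31.9 and 19.4. Cdc45, at 17.2, had a log2 change of -0.05. Gins1, at 17.2, had one of 0.03, and Gins2, at 75.5, one of 0.16. None of these 5 passed the test.

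Of the genes that make deoxynucleotides, Rrm2 and Tyms had negative log2 changes in 12/-, without a call. Rrm2, the regulated subunit of ribonucleotide reductase (chr12:25393119-25399011), is described further on because of its pattern between libraries. Its partner Rrm1 was almost flat, at 21.7 scaled FPKM over all libraries with a log2 change of 0.01. Tyms, thymidylate synthase (chr5:30384740-30400165), stood at 10.5, 13.4 and 11.7 in 12/- and at 9.65 in 12/vg, the lowest value of all 16. It stood at 12.5, 15.2 and 12.8 in +/+, 15.2, 12.3 and 13.1 in +/-, 14.3, 13.1 and 14.3 in +/vg and 13.3, 11.9 and 13.5 in +/12. Of the 12/- libraries, 1 lay inside the normal range and the others below it, and the log2 change was -0.17 ± 0.09 (SE; limma adjusted p = 0.526).

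Genes of strand synthesis had no call either. Pcna, the sliding clamp (chr2:132075022-132078916) and the most abundant S-phase gene here, stood at 110.3, 119 and 123 scaled FPKM in 12/-. It stood at 127, 118 and 127 in +/+, 121, 116 and 128 in +/vg, 127, 134 and 121 in +/12 and 131, 206 and 117 in +/-. The shallow +/- library and the shallow 12/vg library, at 152, were the highest of all 16. The log2 change in 12/- was -0.14 ± 0.13 (SE; limma adjusted p = 0.728). Pola1, the catalytic subunit of polymerase alpha (chrX:90550105-90877494) and the lowest S-phase gene, stood at 3.12, 4.85 and 3.94 in 12/- and 3.48 in 12/vg. The normal groups held 4.70, 4.91 and 3.62 in +/+, 4.78, 3.81 and 4.27 in +/-, 4.33, 3.93 and 4.78 in +/vg and 4.21, 3.87 and 4.43 in +/12. The 12/- libraries overlapped every normal group, and the log2 change was -0.10 ± 0.11 (SE; limma adjusted p = 0.789). Prim1, the small primase subunit, averaged 15.2 over all libraries with a log2 change of -0.16. The clamp loader genes Rfc3, at 17.1, and Rfc4, at 15.6, had log2 changes of -0.13 and 0.13. Fen1 and Lig1, which trim and join the fragments of the lagging strand, averaged 12.03 and 39.02 with log2 changes of -0.05 and -0.01.

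**Figure D3:**
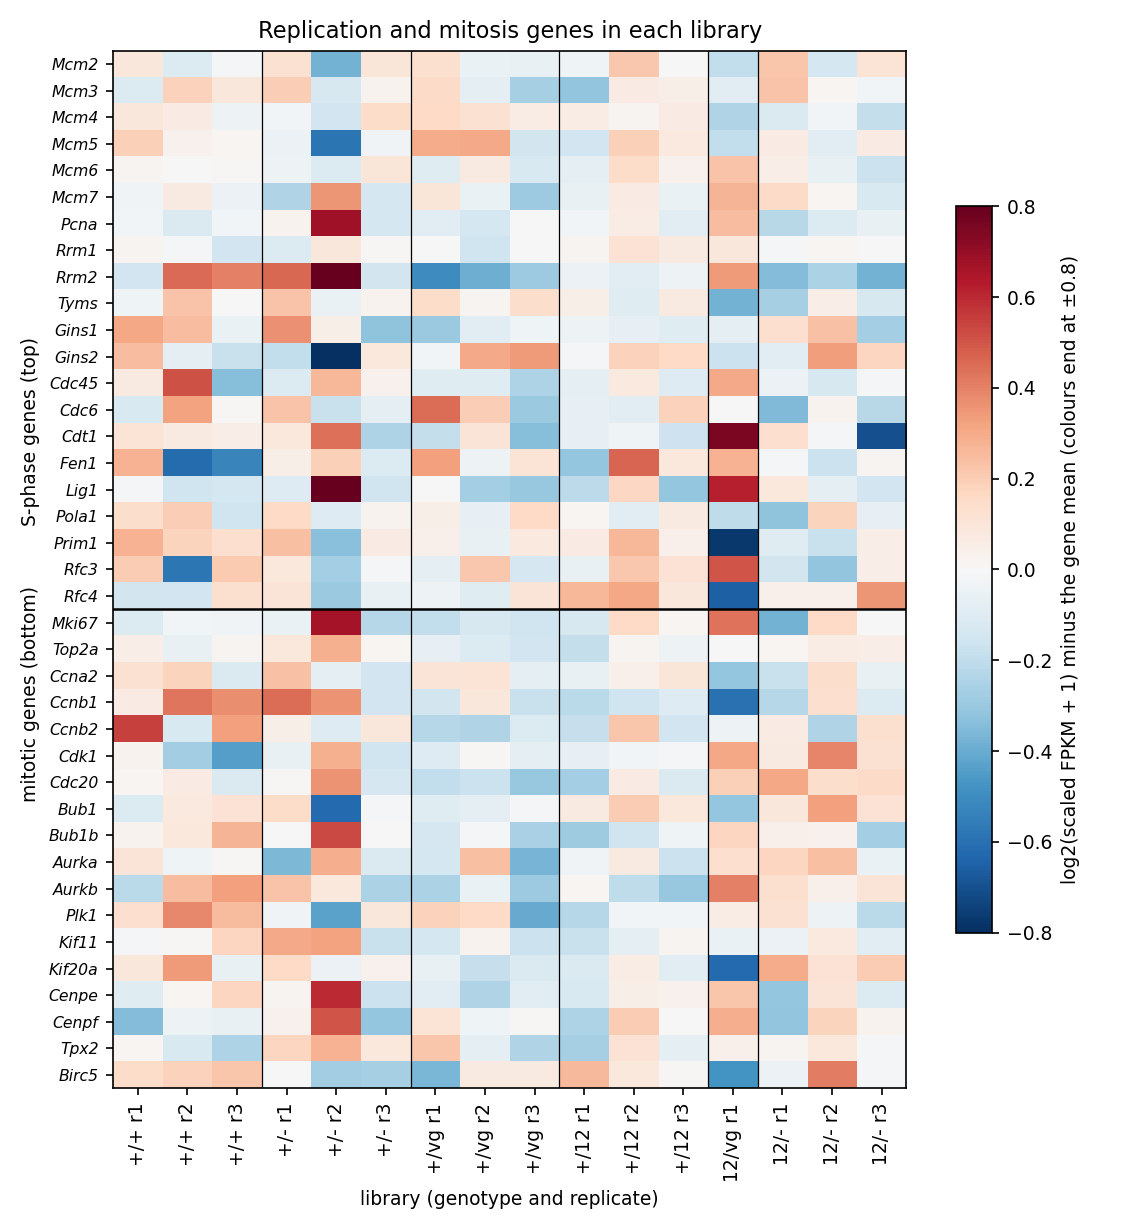
Colour shows log2(scaled FPKM + 1) of each member (rows, S-phase above and mitotic below the line) minus its mean over the 16 libraries (columns, by genotype and replicate), red for higher and blue for lower. The strongest colours lie in the shallow libraries (+/- r2 and 12/vg r1), as for Lig1 at 78.05 scaled FPKM in +/- r2. Some libraries of full depth also have strong colours, as for Cdt1 at 19.4 in 12/- r3.

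The mitotic genes had 9 positive and 9 negative log2 changes in 12/-, with a median of 0.01 and a range from -0.13 to 0.27. Cdk1, the kinase that starts mitosis (chr10:68799383-68815660), stood at 31.8, 40.01 and 32.9 scaled FPKM in 12/- and 37.7 in 12/vg. It stood at 30.9, 24.8 and 22.02 in +/+, 29.02, 37.05 and 26.9 in +/-, 28.1, 30.4 and 28.6 in +/vg and 28.9, 29.8 and 29.9 in +/12. The 12/- libraries lay above 11 of the 12 normal libraries, the exception being the shallow +/- library. The log2 change was 0.27 ± 0.12 (SE; limma adjusted p = 0.389). Cdc20, the activator of the anaphase-promoting complex (chr4:118105506-118109948), stood at 35.7, 31.6 and 31.9 in 12/- and 32.8 in 12/vg. The normal groups held 28.96, 30.02 and 26.3 in +/+, 28.8, 37.02 and 25.9 in +/-, 24.8, 25.3 and 22.96 in +/vg and 23.6, 30 and 26.4 in +/12. Again only the shallow +/- library reached the 12/- values among the normal libraries, and the log2 change was 0.27 ± 0.11 (SE; limma adjusted p = 0.360). These were the only members whose 12/- values were all above the 11 normal libraries of full depth, which 2.35% of all genes were. No member was all below them, as 1.19% of all genes were, and no member lay outside all 12 normal libraries, as 1.91% of all genes did above and 0.929% below.

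Within the low library numbers, 12/- could be set against 5 normal libraries, pooled without regard to genotype. They were all of the +/12 libraries, +/- replicate 3 and +/vg replicate 3, so this comparison shares most of its libraries with 12/- against +/12. There the log2 changes were 0.26 for Cdk1, 0.35 for Cdc20 and 0.25 for Kif20a, with limma adjusted p of 0.252, 0.192 and 0.252. With the library number range as a covariate they were 0.36, 0.40 and 0.21, with adjusted p of 0.566, 0.365 and 0.775. Kif20a, a kinesin needed to finish cell division (chr18:34784278-34792931), stood at 9.04, 7.86 and 8.44 scaled FPKM in 12/- but at 4.33 in 12/vg, its lowest value. The normal groups held 7.70, 9.39 and 6.85 in +/+, 8.15, 6.93 and 7.37 in +/-, 6.88, 6.21 and 6.54 in +/vg and 6.55, 7.52 and 6.69 in +/12. The 12/- libraries overlapped +/+ and +/- but not +/vg or +/12, and the log2 change from normal was 0.20 ± 0.09 (SE; limma adjusted p = 0.414).

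The common proliferation markers Mki67 and Top2a had log2 changes near 0. Mki67, which encodes the Ki-67 antigen of dividing cells (chr7:142881471-142908062), stood at 36.6, 53.5 and 48.01 scaled FPKM in 12/-, at 44.3, 47.1 and 46.9 in +/+ and at 41.5, 43.6 and 42.7 in +/vg. It stood at 43.6, 53.5 and 48.4 in +/12 and 46.1, 76.5 and 40.6 in +/-, and at 65.1 in 12/vg. The 12/- libraries lay on both sides of most normal values, the 2 shallow libraries were highest, and the log2 change was -0.05 ± 0.16 (SE; limma adjusted p = 0.934). Top2a, the topoisomerase that untangles sister chromosomes (chr11:98854261-98885503), stood at 45.4, 46.9 and 46.6 in 12/- and 45.1 in 12/vg. The normal groups held 46.7, 43.1 and 45.7 in +/+, 47.7, 54.95 and 45.5 in +/-, 42.9, 41.5 and 40.2 in +/vg and 39.3, 45.7 and 43.5 in +/12. Its log2 change was 0.05 ± 0.08 (SE; limma adjusted p = 0.862). Among mitotic members its spread was the smallest, with a residual SD of 0.09 on the log2 scale.

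Birc5, or survivin, a subunit of the chromosomal passenger complex (chr11:117710551-117717057), was the most abundant mitotic gene. It stood at 119, 163 and 121 scaled FPKM in 12/- and at 87.6 in 12/vg, the lowest value of all libraries. The normal groups held 136, 139 and 143 in +/+, 122, 101 and 102 in +/-, 95.1, 129 and 129 in +/vg and 147, 129.8 and 124 in +/12. Of the 12/- libraries, 1 was above all others, the groups overlapped, and the log2 change was 0.10 ± 0.12 (SE; limma adjusted p = 0.808). Cenpf, a large kinetochore protein (chr1:191464493-191511965), was the lowest mitotic gene, at 5.01, 7.47 and 6.64 in 12/- and 8.15 in 12/vg. The normal groups held 4.89, 6.28 and 6.17 in +/+, 6.67, 9.62 and 5.04 in +/-, 7.07, 6.32 and 6.54 in +/vg and 5.32, 7.61 and 6.48 in +/12. Its log2 change was -0.02 ± 0.16 (SE; limma adjusted p = 0.975), and the shallow libraries were again the highest.

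Of the other mitotic genes, the cyclins that partner Cdk1 had negative log2 changes in 12/-, none past the test. Ccna2, at a mean of 42.6 scaled FPKM, was at -0.07, Ccnb1, at 23.3, was at -0.13 and Ccnb2, at 34.9, was at -0.02. The mitotic kinases did not share a direction. Aurka, with a level of 23.4, had a log2 change of 0.16, and its activator Tpx2, with a level of 21.97, one of 0.04. Aurkb, with a level of 30.8, had a log2 change of 0.14, and Plk1, with a level of 41.4, one of -0.05. Bub1 and Bub1b, which hold the spindle checkpoint, averaged 9.96 and 21.2 with log2 changes of 0.20 and -0.07. The motor proteins Kif11, which spreads the spindle poles, and Cenpe, which moves chromosomes to the middle, averaged 14.9 and 15.8 with log2 changes of -0.03 and -0.11. None of these 11 passed the test.

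The balance of the classes was taken per library as the mean log2 level of the S-phase genes minus that of the mitotic genes. Class means were close in all libraries, from 4.61 to 4.79 for S phase and from 4.53 to 4.86 for mitosis. The balance was -0.04, -0.16 and -0.08 in 12/-. It was 0.07, 0.06 and 0.06 in +/12 and 0.11, 0.02 and 0.09 in +/vg. The +/+ libraries were at 0.04, -0.04 and -0.10, the +/- libraries at -0.01, -0.15 and 0.06, and 12/vg was at 0.04. Where its 0 lies depends on which genes are in the lists, so only its differences between libraries can be read. The 12/- values were below every +/12 and +/vg library and overlapped +/+ and +/-. Within the low library numbers, the 5 normal libraries lay between 0.06 and 0.09, and 12/- lay below them. The 7 normal libraries with high numbers ran from -0.15 to 0.11. The genes were chosen with results of these data known, so the balance is given as a description with no p-value.

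**Figure D4:**
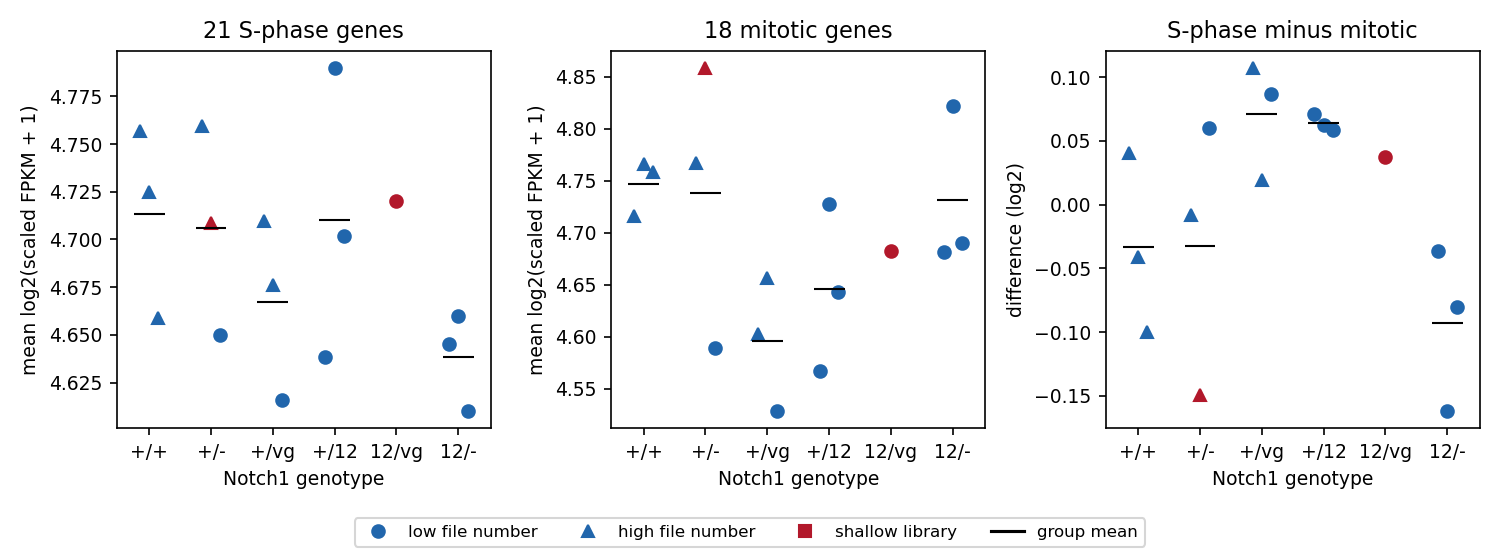
Mean log2(scaled FPKM + 1) of the 21 S-phase genes, of the 18 mitotic genes, and their difference (vertical axes), per library by genotype, with circles for low and triangles for high library numbers, red for the shallow libraries and bars for group means. The difference in the 3 libraries of 12/- is lower than in every library of +/vg and +/12 and overlaps that of +/+ and +/-.

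Outside the +/12 libraries without overlap, 12/- had 4 members higher, which were Cdk1, Cdc20, Aurkb and Kif20a, all mitotic, and 3 lower, which were Mcm4, Rrm1 and Rrm2, all S-phase. Over all genes 7.93% were higher and 6.84% lower in this way. Outside the +/vg libraries, 6 mitotic members were higher (Top2a, Cdk1, Cdc20, Bub1, Aurkb and Kif20a) and 1 S-phase member lower (Mcm4), with 10.2% and 10.5% over all genes. The other 58 replication genes, of which 57 were tested, and the other 84 mitosis genes gave a balance of -0.07, -0.12 and -0.16 in 12/-. In the 5 normal libraries with low numbers it was between -0.06 and -0.02, and in the 7 with high numbers between -0.17 and 0.01. In these lists 12/- lay below the low-numbered normal libraries, by a small margin (-0.0745 against -0.0555 at the nearest), and inside the range of the high-numbered ones. The lists hold genes of the same processes measured in the same libraries, so they are not an independent check.

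In those related lists no gene was called in 12/- against normal. Of the 57 other replication genes, 20 had a positive and 37 a negative log2 change, with a median of -0.06, while 49.15% of all genes were positive. At an unadjusted p under 0.05, 4 were higher (7.02%) and 5 lower (8.77%), where 6.57% of all genes were higher and 4.95% lower. The 4 higher ones were the 4 subunits of DNA polymerase delta, the enzyme of lagging strand synthesis and DNA repair, chosen for mention after their values were seen. Their log2 changes were 0.38 ± 0.13 (SE) for Pold3, 0.49 ± 0.18 for Pold4, 0.43 ± 0.18 for Pold1 and 0.36 ± 0.16 for Pold2, with limma adjusted p from 0.236 to 0.392. The 5 lower ones were Ccne1 (-0.47), which encodes cyclin E, Tcf19 (-0.34), the origin kinase gene Cdc7 (-0.36), the phosphatase gene Cdc25a (-0.27) and the primase subunit gene Prim2 (-0.22). The lowest adjusted p among these 5 was 0.342. Of the 84 other mitosis genes, 43 were positive and 41 negative, with a median of 0.00, and 2 passed at an unadjusted p under 0.05, both higher. These were Melk (0.22) and the condensin gene Ncapd2 (0.30), with limma adjusted p of 0.313 and 0.383.

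Against each normal genotype alone, 12/- again had no called member. The share of all genes called was 0.209% against +/12, 0.569% against +/-, 0.607% against +/+ and 0.445% against +/vg. These comparisons share the 12/- libraries, so their values are given side by side and not counted as repeats. The median log2 change of the S-phase genes was -0.08 against +/12, -0.07 against +/-, -0.08 against +/+ and -0.05 against +/vg. That of the mitotic genes was 0.07, -0.03, -0.02 and 0.12 in the same order, with 13, 8, 8 and 15 of 18 positive. Without scaling between libraries the median of all genes shifted to 0.06 in 12/- against normal and to 0.11 against +/12, and the S-phase median against normal turned to 0.02, below that shift.

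Single genes in these comparisons passed only before adjustment. Against +/12, Cdc20 (0.31 ± 0.14, SE) and Kif20a (0.25 ± 0.12) did so, with limma adjusted p of 0.934 for each, and 5.3% of all genes passed at that level. Against +/vg, Cdc20 (0.42 ± 0.14), Kif20a (0.32 ± 0.12) and Mcm4 (-0.22 ± 0.10) did so, with adjusted p of 0.268, 0.343 and 0.483, and 10% of all genes. Against +/+, Cdk1 (0.42 ± 0.15) and Rrm2 (-0.56 ± 0.23) did so, with adjusted p of 0.273 and 0.357, and 12.2% of all genes. Against +/-, Rrm2 (-0.76 ± 0.23) and Gins2 (0.54 ± 0.25) did so, with adjusted p of 0.211 and 0.416, and 11.7% of all genes. Gins2 was low in the shallow +/- library, at 34.2 scaled FPKM against 64.1 and 78.3 in the other +/- libraries. The shares of members that passed before adjustment were no larger than these backgrounds in any of the 4 comparisons.

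Rrm2 and the cyclin gene Ccnb1 were highest in the same 4 libraries, from 2 genotypes. The share of all genes with this pattern was not determined, so the pattern cannot be read as particular to these 2 genes. Rrm2 stood at 45.7, 70.2 and 67.7 scaled FPKM in +/+, 70.4, 102 and 45.99 in +/-, 35.6, 38.6 and 41.6 in +/vg and 49.2, 47.8 and 49.6 in +/12. It stood at 39.96, 42.7 and 39.1 in 12/- and 64.8 in 12/vg. The 4 highest values belonged to the libraries numbered 371 to 374, which are +/+ replicates 2 and 3 and +/- replicates 1 and 2. The log2 change in 12/- against normal was -0.38 ± 0.18 (SE; limma adjusted p = 0.463), and it was -0.14 without those 4 libraries (adjusted p = 0.418) and -0.20 within the low numbers (adjusted p = 0.288). Against +/- alone, the value of -0.76 became -0.18 without those libraries, which leaves 1 +/- library. It became -1.05 with a limma adjusted p of 0.0242 without the low-numbered +/- replicate 3. In that fit 156 of all genes were called, against 60 in the main fit. The value of -1.05 rests on +/- replicates 1 and 2, both among those 4 libraries, and replicate 2 is shallow. The choice of these 4 libraries was made after these values were seen.

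Ccnb1, the cyclin that carries Cdk1 into mitosis (chr13:101548694-101556441), stood at 23.9, 31.1 and 29.9 scaled FPKM in +/+, 31.5, 29.5 and 20.5 in +/-, 20.5, 24.4 and 20.1 in +/vg and 19.5, 20.3 and 21.1 in +/12. It stood at 19.4, 25.2 and 21.1 in 12/- and 14.7 in 12/vg. The same 4 libraries were the highest, here too without overlap. What the library numbers record was not given in the sources used here, and their part in these values was not tested. These genes act at different stages, Rrm2 in supplying nucleotides for S phase and Ccnb1 in entry to mitosis.

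**Figure D5:**
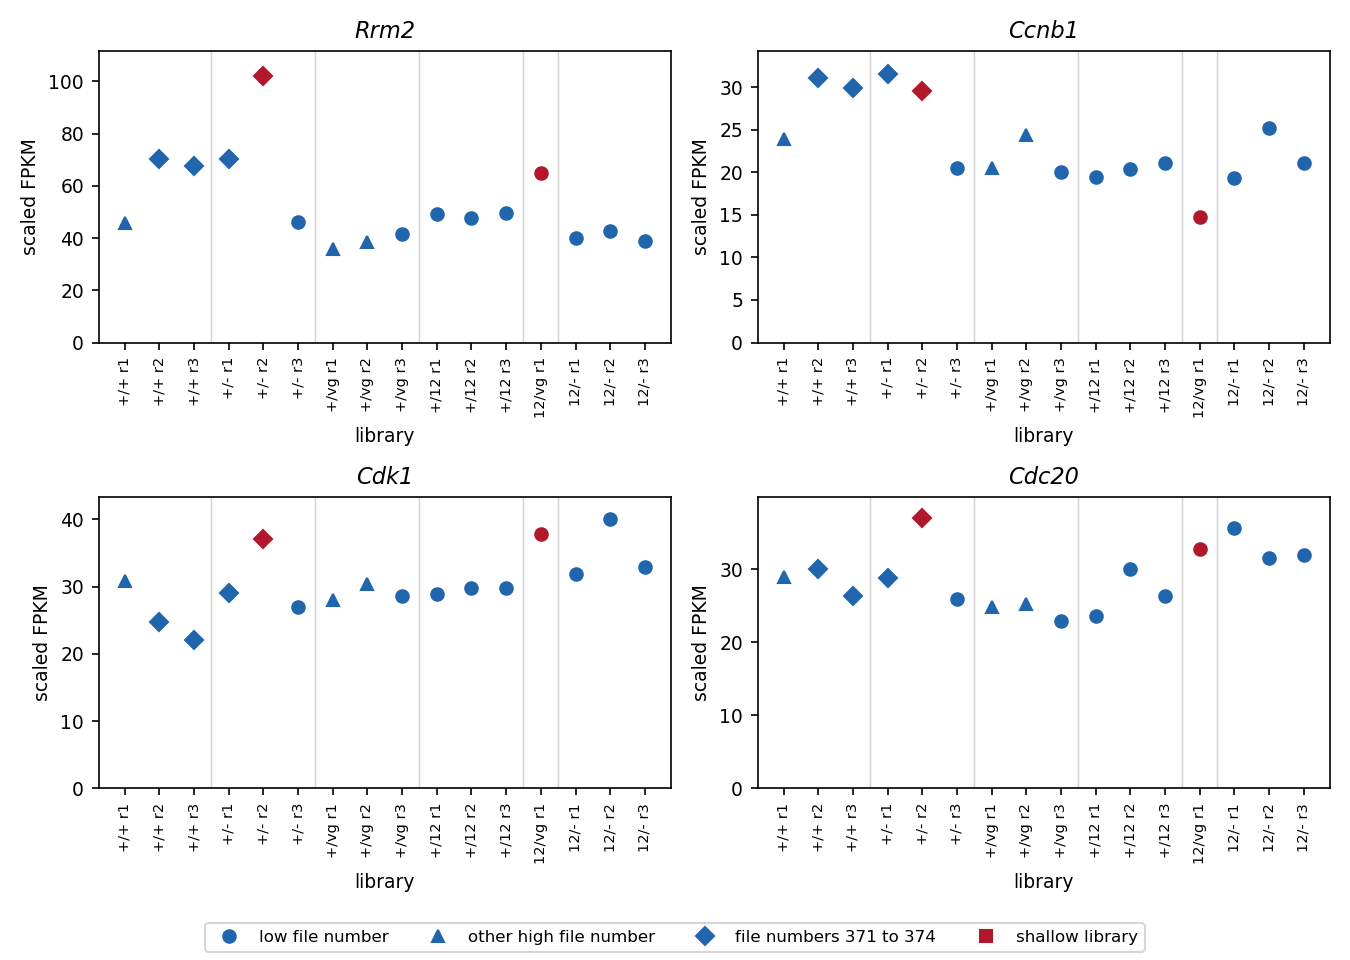
Scaled FPKM (vertical axis) of Rrm2, Ccnb1, Cdk1 and Cdc20 in each of the 16 libraries, grouped by genotype, with diamonds for the libraries numbered 371 to 374 and red for the shallow libraries. Rrm2 and Ccnb1 are highest in the diamonds, and Cdk1 and Cdc20 in 12/- lie above all normal libraries of full depth.

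The heterozygous genotypes were then set against +/+ to see whether 1 altered allele moved these genes. No member and no gene at all was called in +/-, +/vg or +/12 against +/+ by limma, a share of 0% each, while 792, 793 and 567 genes passed at an unadjusted p under 0.05 (7.51%, 7.52% and 5.37%). Over all genes the counts called rose from 0 to 3, 3 and 2 without +/+ replicate 1, to 4 in +/- without +/- replicate 1, and to 18, 19 and 19 without the libraries numbered 371 to 374. In +/vg the count was 7 within 1 range of library numbers. Mitotic genes were mostly lower in +/vg, with 3 of 18 positive and a median log2 change of -0.16. In +/12 they had 5 of 18 positive and a median of -0.07, and in +/- 9 of 18 and -0.01. The other mitosis genes had 20 of 84 positive in +/vg, 21 in +/12 and 41 in +/-, while 51.1%, 50.1% and 49.5% of all genes were positive. These comparisons share the +/+ libraries. The +/+ libraries were all high-numbered and the +/12 libraries all low-numbered, so genotype and library number cannot be told apart there. S-phase medians were -0.01 in +/vg, -0.02 in +/12 and -0.02 in +/-.

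The members that passed before adjustment against +/+ were few. In +/vg these were Ccnb2 (-0.44 ± 0.17, SE; limma adjusted p = 0.592), Ccnb1 (-0.37 ± 0.16; 0.657) and Rrm2 (-0.63 ± 0.23; 0.583). Ccnb2, a second B-type cyclin, stood at 29.2, 28.9 and 31.9 scaled FPKM in +/vg and 50.8, 31.6 and 43.5 in +/+, which overlapped. In +/12 it was Ccnb1 alone (-0.45 ± 0.16; limma adjusted p = 0.898). Without the libraries numbered 371 to 374, which leaves 1 +/+ library, the Ccnb1 values were -0.14 in +/vg and -0.22 in +/12, and the Rrm2 value in +/vg was -0.24. In +/- the members were Tpx2 (0.30 ± 0.14; limma adjusted p = 0.658) and Birc5 (-0.37 ± 0.15; 0.650).

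Across the number of wild-type alleles, which was 0 in 12/- and 12/vg, 1 in +/-, +/vg and +/12, and 2 in +/+, no member had a called slope, and 0.0379% of all genes did. Cdk1 came nearest, with a slope of -0.23 ± 0.06 (SE) on the log2 scale per wild-type allele (limma adjusted p = 0.117). Its mean was 25.9 ± 4.53 scaled FPKM (SD, n = 3) in +/+, 30.99 ± 5.35 in +/-, 29.01 ± 1.23 in +/vg, 29.5 ± 0.537 in +/12 and 34.9 ± 4.45 in 12/-. The heterozygous groups lay between +/+ and 12/- in their means, with overlap of +/+ and each of them. All +/+ libraries had high library numbers and all 12/- and 12/vg libraries low ones. Genotype and library number therefore cannot be told apart between the 2 ends of this slope, nor in 12/- against +/+. Without the libraries numbered 371 to 374, which leaves 1 +/+ library, the slope was -0.17. Over 30 alternatives the Cdk1 slope ran from -0.28 to -0.17, with a lowest limma adjusted p of 0.05001 and no call. Ccnb1 (0.24 ± 0.09), Prim1 (0.23 ± 0.08) and Tyms (0.13 ± 0.06) had slopes of the other sign, with limma adjusted p of 0.252, 0.230 and 0.323. These 4 of 39 passed before adjustment, against 14.5% of all genes.

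The question whether losing the wild-type allele acts differently beside the 12 allele than beside a wild-type allele was asked with an interaction, the change from +/12 to 12/- minus that from +/+ to +/-. No member was called, and 0.0474% of all genes were. No member passed before adjustment either, where 6.56% of all genes did, and the lowest limma adjusted p among members was 0.776. The medians were -0.07 for the S-phase genes and 0.11 for the mitotic genes. A test for any difference among the 6 genotypes called no member and 0.351% of all genes. The 5 members that passed it before adjustment were Kif20a, Prim1, Rfc4, Ccnb1 and Rrm2, with limma adjusted p from 0.193 to 0.294, while 13.5% of all genes passed.

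The 12/vg genotype had a single library, which was also shallow. No member was called there, and 0.332% of all genes were. Before adjustment 9 of 39 members passed, 2 higher and 7 lower, with 18.3% of all genes (9.51% higher and 8.83% lower). Prim1 had the lowest log2 change, with 8.34 scaled FPKM against a normal range of 11.6 to 18.3 and a change of -0.85 ± 0.18 (SE; limma adjusted p = 0.0659). Cdt1 had the highest, with 54.8 against 25.1 to 43.99 and a change of 0.77 ± 0.27 (limma adjusted p = 0.170). The others that passed before adjustment were Rfc4 (-0.67), Ccnb1 (-0.67), Kif20a (-0.62), Birc5 (-0.49), Tyms (-0.44) and Mcm4 (-0.29), all lower, and Aurkb (0.46), higher. With 1 library, the spread of 12/vg was taken from the other groups.

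Of the 9 members, Prim1, Rfc4 and Cdt1 also stood apart from all 14 full-depth libraries on the same side in the other shallow library, which is normal +/-. The other 6 did not, though Mcm4 in that library, at 21.9 scaled FPKM, was the lowest of the 12 normal values. Ccnb1, for one, was at 29.5 scaled FPKM there and 14.7 in 12/vg. Both shallow libraries lay above all 14 others for 7 members (Mcm7, Pcna, Cdt1, Lig1, Mki67, Cenpe and Cenpf) and below all others for 5 (Mcm2, Mcm5, Prim1, Rfc4 and Bub1). Over all genes this held for 9.4% above and 9.06% below. Lig1, DNA ligase, stood at 78.05 scaled FPKM in +/- replicate 2 and 58.6 in 12/vg, while the 14 others ran from 30.2 to 42.4. Bub1 stood at 6.05 and 7.75, against 9.05 to 12.6. Without +/- replicate 2 in the fit, 755 of all genes were called in 12/vg by limma, against 35 in the main fit. The 4 members among them cannot be set apart from this general rise. They were Prim1 (-0.89), Rfc4 (-0.70) and Kif20a (-0.63), lower, and Lig1 (0.76), higher. For this reason the values of 12/vg, where genotype and depth cannot be told apart, are given as those of 1 library.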

How the data were processed

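For each of 16 libraries the authors deposited a cufflinks table, per the file headers, that lists FPKM, coverage and an estimation status for 28107 RefSeq transcripts. Alignment was to mm9 with TopHat2 2.0.9 (named in the submitters' processing notes). Neither the cufflinks version nor the strandedness was stated in the labels. Deposited FPKM is normalized by length and library size, so no count test was run, and reads on overlapping genes leave their estimates uncertain. The deposited coverage served only to find depth: coverage over FPKM was 1 constant per library (relative spread at most 1.99e-06), equal to the gigabases aligned. No counts were recovered, so no counting interval is given.

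Transcript FPKM was added up per symbol (Python 3.11.15, pandas 2.3.3). Symbols with a status other than OK in any library, 211 in all, were dropped, and 87 of these averaged at least 1 FPKM. The test covered the 10550 genes that averaged at least 1 FPKM. After division by median-ratio factors from 8610 genes, log2(scaled FPKM + 1), which understates the change of low genes, was fitted in limma 3.58.1 (R 4.3.3, eBayes with trend, two-sided). All 16 libraries in 6 groups shared 10 residual degrees of freedom, except in the slope over wild-type alleles. The slope had its own fit, with the number of alleles and no terms for groups, so differences between genotypes of equal number entered its spread. In all fits p was adjusted by Benjamini-Hochberg over every gene tested. Replicates are numbered in accession order, since the labels number none, and p-values measure only the spread between libraries, part of which may be technical. The fit was tested on simulated data.

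Members and lists were chosen with earlier results of these data known. Given in full were Mcm2, Pcna, Mki67 and Top2a, the highest and lowest gene of each class, and the 3 genes of each class with the smallest p in 12/- against normal. Of the other lists, up to 5 called genes per comparison were to be named, and none was called. Rrm2 and Ccnb1 by library, genes that passed only before adjustment and the genes named from the other lists were added after their values were seen. Alternatives were other scalings, pseudocounts, filters, moderation and weights, covariates for library number and depth, the top transcript alone, and leaving out libraries.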

Additional observations from a re-analysis of the deposited data

How the results depend on the processing

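With the main settings 0 of 39 members were called in all 12 comparisons, and the count stayed at 0 under all alternatives run in 9 of them. In 12/vg against normal it was 1 with a pseudocount of 0.1, without the filter on low values and with the top transcript alone. Over all genes, 112, 246 and 111 were called in these settings, against 35 in the main fit. The count of members was 4 with array weights, where 839 of all genes were called. It also rose without the libraries numbered 371 to 374, an alternative chosen after seeing the data, which leaves 1 +/+ and 1 +/- library. With single libraries left out the count of members ran from 0 to 4 in 12/vg. It was 4 without +/- replicate 2, where 755 of all genes were called. In 12/- against +/- it ran from 0 to 1 (Rrm2, without +/- replicate 3, where 156 of all genes were called). In the test among the 6 genotypes it ran from 0 to 1 (Prim1, without +/- replicate 2, where 110 of all genes were called). The cause was not tested. For 12/- against normal, the S-phase median log2 change was 0.0236 without scaling, where the median of all genes was 0.0627, and the mitotic median was 0.116 with the library number range as a covariate. Some uncalled changes near 0 turned sign. Without scaling, Mki67 was at 0.0262 and Cenpf at 0.0462, and with array weights they were at 0.0160 and 0.0356. With the number range as a covariate they were at 0.103 and 0.156, without the 2 shallow libraries at 0.0151 and 0.0321, and without the libraries numbered 371 to 374 at 0.0516 and 0.124, where Mcm2 was at -0.000829. Within the low library numbers Cenpf was at 0.0326. With single libraries left out, Mcm2 ran from -0.0164 to 0.165, Mki67 from -0.167 to 0.1001, Pola1 from -0.228 to 0.0238, Birc5 from -0.0414 to 0.186 and Cenpf from -0.129 to 0.119, with these limits set by 12/- replicates 1 and 2. A minimum mean FPKM of 5 removed Pola1 from the test. Over all genes, the count called in 12/- against normal was 83 and ran from 28 to 249 over the alternatives, and that in 12/vg was 35 and ran from 6 to 839. No paired analysis was possible because the labels give the libraries no replicate numbers. Depth limits the values of +/- replicate 2 and 12/vg most.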
